A study of Mus musculus with 2 samples.

Results

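The VEGF family is described here gene by gene across the cells of a mouse glioblastoma (GBM). Its 9 members were matched by symbol among the 27998 genes of the tables: the ligands Vegfa, Vegfb, Vegfc and Pgf, the receptors Flt1, Kdr and Flt4, and the co-receptors Nrp1 and Nrp2. The data were single-cell RNA-seq libraries of 2 tumors in C57BL/6 mice of 3 months, 1 library of 1 animal each, called tumor 1 and tumor 2 as they are numbered in the labels. Both were NPCTKO tumors, made by electroporating embryonic neural progenitors in utero with a piggyBac cassette that carries Cas9, luciferase, a fluorescent label (EGFP or DsRed) and guides against tumor suppressors, Trp53 and Nf1 among them. The study used Tek-Cre;Ai14 and Tbx18 CreERT2/+;Ai14 hosts, 1 tumor each, and the labels do not give which library came from which host. Effects of host and tumor cannot be told apart here. The study has no untreated or tumor-free library among those analysed here, and the question addressed was which cells of the tumor carry VEGF transcripts and which carry the receptors.

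VEGF ligands are secreted dimers that drive the sprouting, survival and leakiness of blood and lymphatic vessels. VEGFA, the main angiogenic ligand, signals chiefly through VEGFR2, the kinase encoded by Kdr, while VEGFR1, encoded by Flt1, binds VEGFA, VEGFB and placental growth factor tightly and acts largely as a decoy, and VEGFR3, encoded by Flt4, binds VEGFC and VEGFD. Neuropilins present some of these ligands to the receptors and also bind class 3 semaphorins. In GBM, VEGFA is known as a hypoxia-driven product of tumor and myeloid cells, and it is a drug target.

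After filtering, 11333 cells of tumor 1 and 13124 cells of tumor 2 remained, with medians of 17984 and 13365 UMIs of mouse genes per cell. Cells were called by the raw UMIs of marker genes, and the names below mean no more than that gate: 8486 and 4774 glioma cells, 377 and 188 microglia, 23 and 545 monocytes, 197 and 183 T cells, 39 and 26 endothelial cells (ECs), 5 and 26 mural cells and 118 and 71 oligodendrocytes (OLGs) in tumors 1 and 2. The gate left 17.6% and 51.7% of the cells without a class. The EGFP transgene, a tumor-cell label, reached 15.4% and 36.5% of its glioma level in ECs, 43.8% and 73.4% in OLGs, and between 4.6% and 13.1% in microglia, monocytes, T cells and mural cells; its part in the results below was not tested. The endothelial markers summed to 97.1 and 53.1 UMIs per 10,000 in the ECs of tumors 1 and 2. In the glioma cells they summed to 0.079 and 0.0874. The Ai14 label, tdTomato, marks ECs and macrophages in Tek-Cre hosts and mural cells in Tbx18 CreERT2/+ hosts. It was at 0.804 and 0 UMIs per 10,000 in ECs of tumors 1 and 2, and 0.141 and 0.00723 in microglia. Mural cells had 0 and 0.6, with 5 cells in tumor 1. This is the Tek-Cre pattern in tumor 1 and the Tbx18 pattern in tumor 2. The libraries shared 35 of their kept cell barcodes. Levels are UMIs per 10,000 UMIs of mouse genes in the summed cells of a class, with exact Poisson intervals at 95%, and shares of cells have exact binomial intervals; both cover counting error only. The UMIs come from transcript 3′ ends and are not scaled to length, so levels are compared between classes for a gene and not between genes.

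The receptors Flt1 and Kdr carry the clearest cell-type pattern below, so the sequence just upstream of their start sites is shown. The ligand genes lie at chr17:46016993-46032369 (Vegfa), chr19:6982473-6987651 (Vegfb), chr8:54077606-54187096 (Vegfc) and chr12:85166635-85177790 (Pgf) of GRCm38, Flt4 at chr11:49609263-49652739, Nrp1 at chr8:128358604-128503363 and Nrp2 at chr1:62703285-62818695. Flt1 and Kdr lie on the minus strand of chromosome 5, Flt1 at chr5:147561604-147726011 and Kdr at chr5:75932827-75978458. Each window holds 240 bases, 5′ to 3′ on the gene's strand, and ends 10 bases before the RefSeq start (GRCm38.p6), at chr5:147726022-147726261 for Flt1 and chr5:75978466-75978705 for Kdr. Capitals mark GGAAG on either strand, a form of the GGAA or GGAT core that ETS transcription factors bind. Both windows hold other GGAA stretches, which are not marked or counted.
Flt1: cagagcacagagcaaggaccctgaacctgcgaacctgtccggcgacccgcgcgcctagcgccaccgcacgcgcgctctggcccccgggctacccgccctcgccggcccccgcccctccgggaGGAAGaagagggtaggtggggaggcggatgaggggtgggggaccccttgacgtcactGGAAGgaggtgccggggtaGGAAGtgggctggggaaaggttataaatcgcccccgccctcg
Kdr: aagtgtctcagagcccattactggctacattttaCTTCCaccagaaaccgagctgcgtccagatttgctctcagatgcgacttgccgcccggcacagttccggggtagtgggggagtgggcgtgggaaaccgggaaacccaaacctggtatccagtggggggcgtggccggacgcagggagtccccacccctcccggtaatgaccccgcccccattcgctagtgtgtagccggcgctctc
The Flt1 window held 3 copies of GGAAG and the Kdr window 1. All 9 genes matched the RefSeq table, with 11 start sites, and 5 of these 11 windows held GGAAG (Vegfa at 1 of its starts, Flt1, Kdr, Flt4 and Nrp1), against 62.2% of all 32851 windows of that length. The windows of Flt4, Nrp1, both starts of Pgf and the second start of Vegfa lie wholly within the gene as GENCODE annotates it, and that of Nrp2 by 22 bases, so they precede the RefSeq start but not the first annotated transcript. GGGCGG, a GC box searched on both strands, was in 10 of the 11 windows, against 31.3% of all windows. ACGTG, the core of the hypoxia response element, was in 1 of the 11, against 15.9% of all. That window was of the second Vegfa start, within the gene, and the window of the first Vegfa start had 0. The motifs were not required to be apart, and a match or its absence describes these letters in these windows only.

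Among the classes counted above, Vegfa was found in glioma cells and, at a higher level, in monocytes. Macrophages, described at the end, had levels whose intervals overlapped those of monocytes in both tumors. In glioma cells the level of Vegfa was 0.214 (0.207 to 0.221) in tumor 1 and 0.258 (0.248 to 0.267) in tumor 2, and 25.7% and 28.6% of glioma cells had a UMI. In monocytes the level was 1.22 (0.794 to 1.78, from 26 UMIs) in tumor 1 and 0.39 (0.345 to 0.439, from 273 UMIs) in tumor 2, and 47.8% and 30.5% of the cells had a UMI. Monocytes thus stood above glioma cells in both tumors, with intervals that did not overlap. Microglia lay below glioma cells at 0.133 and 0.107, OLGs at 0.135 and 0.159, and T cells at 0.0723 and 0.0611. Mural cells had 0 and 7 UMIs. ECs had 5 and 16 Vegfa UMIs, or 0.0773 (0.0251 to 0.18) and 0.259 (0.148 to 0.42), and in tumor 2 these UMIs were in 11.5% of the ECs. With a gate at 10 times every other class the 16 ECs of tumor 2 had 0 Vegfa UMIs, so that value depends on the gate, and microglia of tumor 2 were then at 0.0165 and OLGs of tumor 1 at 0.0322. The intervals of microglia and OLGs overlapped in both tumors, and in tumor 2 those of ECs and glioma cells did. With each cell thinned to 2000 UMIs, Vegfa was found in 3.9% and 4.75% of glioma cells, 30.4% and 8.26% of monocytes and 2.14% and 1.6% of microglia, which kept this order.

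Glioma cells held 79.2% of all Vegfa UMIs of tumor 1 and 45% of those of tumor 2, against 80.9% and 49.1% of the UMIs of all mouse genes. Monocytes held 0.522% and 4.25% of the Vegfa UMIs. Cells without a class held 15.3% and 46.9%. Of these 1995 and 6786 cells, 544 and 1686 had macrophage markers. They held 45.5% and 26.5% of the Vegfa UMIs outside the classes. With a gate at 10 times the glioma share was 64.2% and 23.3%, and at 2 times 83.5% and 61.0%. At the gate used, the glioma share of Vegfa was close to the share of all RNA that these cells made up.

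**Figure D1:**
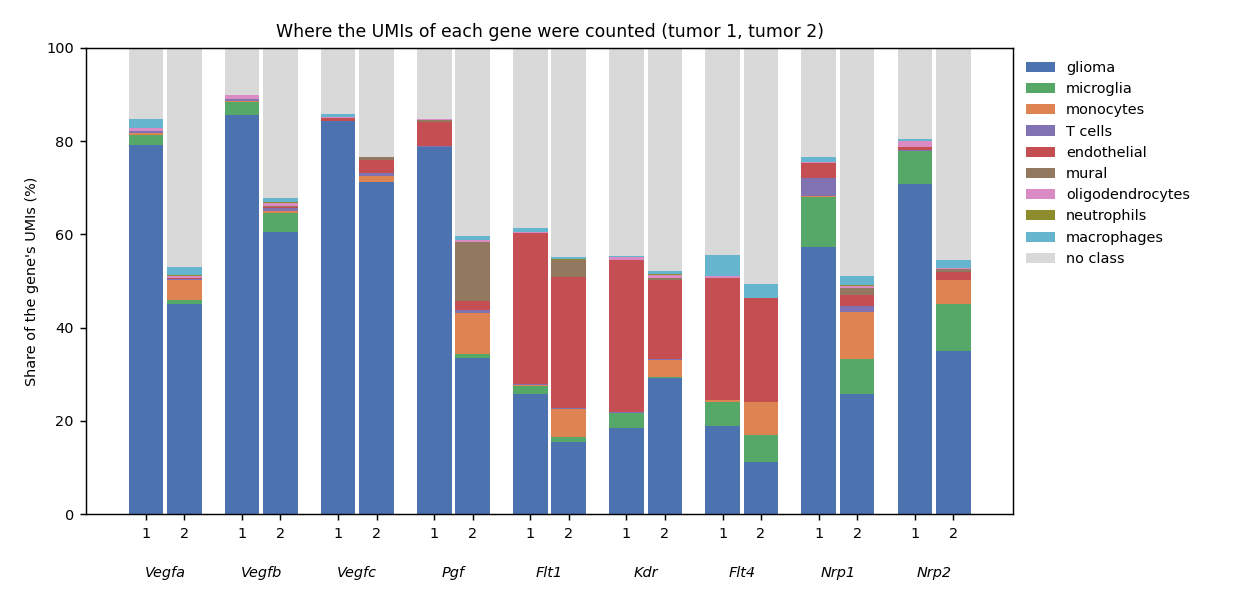
Share of each gene's UMIs (percent, vertical axis) held by each cell class, for the 9 VEGF genes, in tumor 1 and tumor 2. Glioma cells held 79.2% and 45% of Vegfa, and ECs, 0.344% and 0.198% of the cells, held 32.4% and 28.1% of Flt1.

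Vegfa was uneven among glioma cells. Cells were ranked by the summed UMIs of 18 HIF target genes, Vegfa left out, after thinning to 2000 UMIs. In the highest 10% the level of Vegfa was 0.462 in tumor 1 and 0.96 in tumor 2, against 0.185 and 0.195 in the other glioma cells. These are ratios of 2.49 (counting interval 1.91 to 3.22) and 4.93 (3.77 to 6.4). The ratio for Vegfb was 0.709 (0.561 to 0.885) and 0.687 (0.489 to 0.94), and that for Actb, which encodes beta-actin, was 1.06 and 0.976. Many cells have the same summed count, and the cells at the edge of the highest 10% were drawn at random among ties, so levels were also taken at each whole score. In tumor 1 the level of Vegfa was 0.174, 0.192 and 0.196 at 0, 1 and 2 HIF target UMIs, 0.337, 0.305 and 0.678 at 3, 4 and 5, and 2.5 (1.58 to 3.75) in the 46 cells with 6 or more. In tumor 2 it was 0.137, 0.199 and 0.187 at 0, 1 and 2, 0.274, 0.42 and 0.726 at 3, 4 and 5, and 1.27 (0.978 to 1.62) in the 252 cells with 6 or more. The level at 6 or more thus lay above that at 0 to 2 in both tumors, with intervals that did not overlap. For cells with 3 or more against the rest, a cut chosen after the ties were seen, the Vegfa ratio was 2.6 (1.99 to 3.37) and 3.25 (2.52 to 4.18). That for Vegfb was 0.676 (0.528 to 0.853) and 0.878 (0.717 to 1.07), an interval that includes 1 in tumor 2. These sets are cut from a score and are not cell types.

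**Figure D2:**
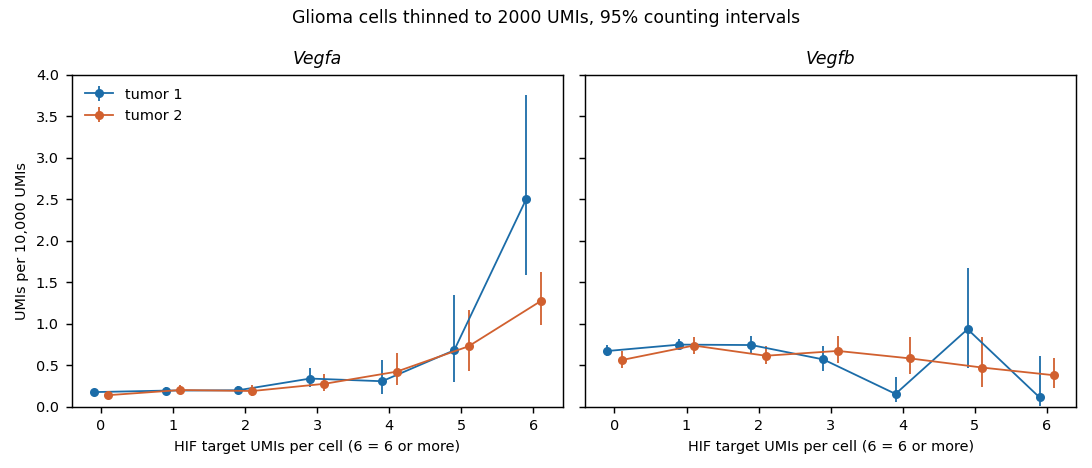
Level of Vegfa and Vegfb (UMIs per 10,000) in glioma cells, thinned to 2000 UMIs each, by the summed UMIs of the HIF target genes in the cell (horizontal axis, 6 standing for 6 or more), with 95% counting intervals, for both tumors. Cells with 6 or more had 2.5 and 1.27 Vegfa UMIs per 10,000, against 0.174 and 0.137 in cells with 0.

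Vegfb, a ligand of VEGFR1, was spread over glial and microglial cells. Its level was 0.695 and 0.55 in glioma cells, 0.569 and 0.744 in microglia and 0.623 and 0.705 in OLGs, and 65.1% and 59.8% of glioma cells and 61.3% and 80.3% of microglia had a UMI. The order of these 3 classes differed between the tumors. Monocytes had the lowest level among the classes of over 10 UMIs in tumor 2, at 0.0856 from 60 UMIs, and 0.187 from 4 UMIs in tumor 1. T cells were at 0.257 in both tumors, and ECs at 0.17 and 0.275. Glioma cells held 85.6% and 60.5% of all Vegfb UMIs.

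Pgf, which encodes placental growth factor, had its highest level in mural cells of the vessel wall. Mural cells, which are pericytes and smooth muscle cells, had 2 UMIs in tumor 1, a level of 1.03 (0.125 to 3.71), and 78 UMIs in tumor 2, a level of 2.04 (1.61 to 2.54) with a UMI in 80.8% of the cells. ECs had 32 and 12 UMIs, at 0.495 and 0.194. In tumor 1, 27 of the 32 were in 1 of the 3 ECs with a UMI, and in tumor 2 the 12 were in 5 ECs. Of the 54 Pgf UMIs in monocytes of tumor 2, 27 were likewise in 1 of 12 cells, and the monocytes of tumor 1 had none. Glioma cells were at 0.0261 and 0.0183. The mural level of Pgf in tumor 2 was thus found in most of its 26 cells, whereas the endothelial and monocyte levels rested on a few.

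Vegfc, the ligand of VEGFR3, was scarce in every class. Glioma cells had 319 and 104 UMIs, levels of 0.0173 and 0.00926, which were 84.4% and 71.2% of all Vegfc UMIs. ECs had 2 and 4 UMIs, levels of 0.0309 (0.00374 to 0.112) and 0.0646 (0.0176 to 0.166), and microglia had none in either tumor. The EC level was thus above the glioma level in tumor 2, with intervals that did not overlap, but rested on 4 UMIs, and in tumor 1 the intervals overlapped. Vegfc did not pass the filter on low counts and was not tested. The gene of the other VEGFR3 ligand, VEGFD, listed as Figf, had 79 and 18 UMIs in glioma cells.

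Flt1 was highest in ECs by a wide margin. Its level was 17.6 (16.6 to 18.7) in the ECs of tumor 1 and 5.64 (5.06 to 6.26) in those of tumor 2, with medians of 22 and 8.5 UMIs per cell and a UMI in 100% and 88.5% of the cells. Mural cells followed at 1.03 from 2 UMIs and at 1.2 (0.879 to 1.6) from 46 UMIs, in 73.1% of the mural cells of tumor 2. Monocytes were next at 0.374 and 0.107, then microglia at 0.0868 and 0.0217 and glioma cells at 0.049 and 0.0172. T cells had 5 and 1 UMIs and OLGs 2 and 1. In tumor 2 the intervals of microglia and glioma cells overlapped. Myeloid cells therefore held some Flt1 above the T-cell and OLG counts in tumor 1, and monocytes did so in tumor 2.

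Most of the Flt1 in glioma cells was in few of them. In tumor 1, 45 glioma cells with 5 or more UMIs held 547 of the 905 UMIs, and in tumor 2, 8 cells held 97 of the 193. The highest glioma cell had 49 UMIs in tumor 1 and 32 in tumor 2. Of those 45 cells, 1 had 3 endothelial markers, and their median sum of endothelial markers was 0 UMIs. These cells kept the glioma class by the gate, and no doublet test beyond Scrublet was applied to them.

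Kdr, the gene of the main signaling receptor, was higher in ECs than in every other class. Its endothelial level was 7.8 (7.14 to 8.52) in tumor 1 and 1.84 (1.52 to 2.21) in tumor 2, with a UMI in 89.7% and 80.8% of the cells. Mural cells had 1 and 2 UMIs. Glioma cells were at 0.0156 and 0.0175 and monocytes at 0.0935, from 2 UMIs, and 0.0357. OLGs were at 0.0434 and 0.0419, from 8 and 5 UMIs. Microglia of tumor 1 had 47 UMIs, in 9.55% of cells, and those of tumor 2 had 1. T cells had 1 UMI in each tumor, so the Kdr of microglia in tumor 2 was at that background.

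Flt4, the gene of the lymphatic-type receptor that is also found on sprouting blood vessels, had 58 and 16 UMIs in ECs, levels of 0.896 and 0.259, in 59% and 26.9% of the cells. Microglia had 11 and 4 UMIs, monocytes 1 and 5, and glioma cells 42 and 8. T cells and mural cells had none in either tumor. Flt4 was thus found in ECs beside Flt1 and Kdr, in fewer of the cells.

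Flt1, Kdr and Nrp1 were found together in 33 of 39 ECs of tumor 1 (84.6%) and in 18 of 26 of tumor 2 (69.2%), against 0.259% and 0.105% of glioma cells. ECs were 0.344% and 0.198% of the cells and held 32.4% and 28.1% of all Flt1 UMIs, 32.7% and 17% of Kdr and 26.2% and 22.5% of Flt4. Cells without a class held a further 38.7% and 44.8% of Flt1 and 44.6% and 47.9% of Kdr. Among these, 25 and 22 cells had at least 3 endothelial markers and held 74.5% and 62.3% of the Flt1 UMIs outside the classes, and 76.8% and 30.2% of the Kdr UMIs. Of these cells, 13 and 7 also had 3 mural markers, and they held 781 of the 1015 and 236 of the 346 Flt1 UMIs. Cells without a class that had macrophage markers held 26.7% and 40.4% of the Flt1 UMIs outside the classes and 12.2% and 31.8% of the Kdr UMIs. The endothelial share is therefore a count for the gate, and at 10 times it was 28.6% and 19.4% for Flt1.

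**Figure D3:**
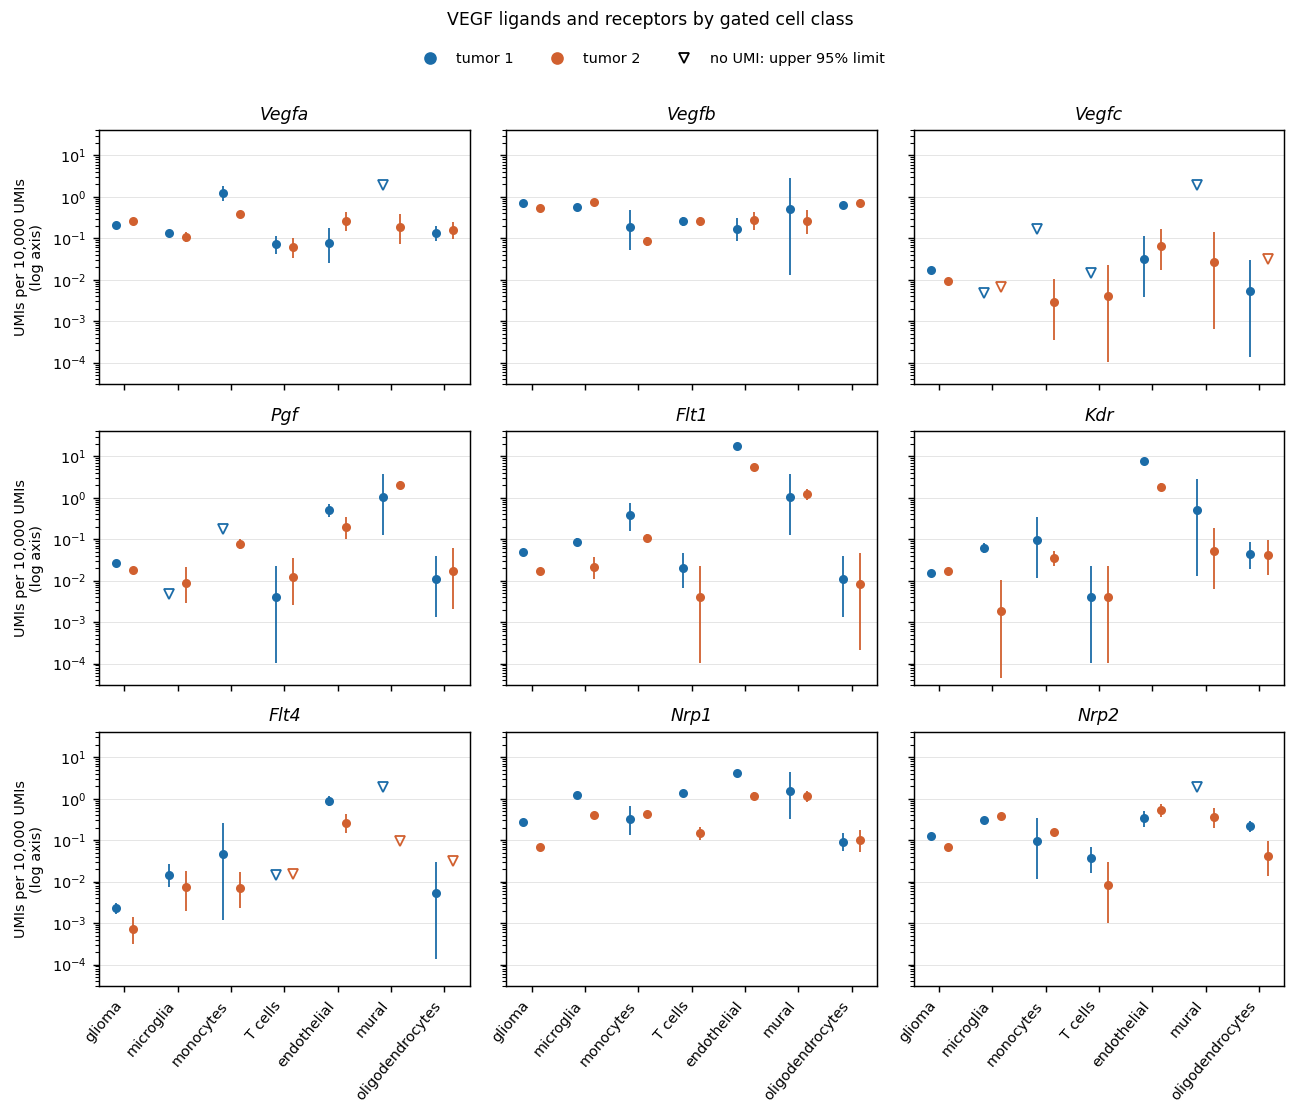
Level of each VEGF gene (UMIs per 10,000, log axis) by cell class in tumor 1 and tumor 2, with exact Poisson intervals; open triangles mark the upper 95% limit where a class had no UMI. Among the classes shown, the receptors Flt1, Kdr and Flt4 stood highest in ECs in both tumors, and Vegfa in monocytes.

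Nrp1, the neuropilin that binds VEGFA, was found in vessel cells, microglia and monocytes, and in T cells mainly in tumor 1. ECs had the highest level in tumor 1, 4.19 (3.7 to 4.72), and in tumor 2 they were at 1.16 (0.91 to 1.47), with a UMI in 92.3% of ECs in each. Mural cells were at 1.54 from 3 UMIs and at 1.17 from 45, so ECs and mural cells did not differ in tumor 2 beyond their intervals. Microglia were at 1.24 and 0.394, with a UMI in 82.2% and 58.5%. Monocytes were at 0.327 and 0.424, glioma cells at 0.271 and 0.0672 and OLGs at 0.0921 and 0.101.

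T cells showed a large gap between the tumors for Nrp1, with 347 UMIs in tumor 1, a level of 1.39 (1.25 to 1.55), and 36 UMIs in tumor 2, a level of 0.147 (0.103 to 0.203). A UMI was found in 67.5% and 13.7% of the T cells, and in 25.5% and 2.19% after thinning to 2000 UMIs. Among T cells with Cd8a or Cd8b1 and neither Cd4 nor Foxp3, the share was 67.3% of 162 cells in tumor 1 and 14.9% of 67 in tumor 2. Cells with Foxp3, which marks regulatory T cells, had it in 77.8% of 9 and 36.8% of 19, and other Cd4 cells in 64.3% of 14 and 10.3% of 39. Each of these subsets had a lower share in tumor 2, but the intervals of the Foxp3 cells overlapped (40% to 97.2% and 16.3% to 61.6%). The subset shares were not thinned. Median UMIs in tumors 1 and 2 were 15580 and 7406 in Foxp3 cells, 10451.5 and 14999 in Cd8 cells and 8348.5 and 7686 in other Cd4 cells.

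Nrp2, the neuropilin that binds VEGFC, had levels in ECs and microglia whose intervals overlapped in both tumors. ECs had 22 and 33 UMIs, at 0.34 and 0.533, and microglia 231 and 214 UMIs, at 0.304 and 0.387. In tumor 2, 13 of the 33 EC UMIs were in 1 cell, and 50% were in 3 ECs of tumor 1 and in 2 of tumor 2. After thinning to 2000 UMIs, Nrp2 was found in 2.78% and 0% of ECs and in 5.09% and 5.32% of microglia. Glioma cells were at 0.129 and 0.067 and monocytes at 0.0935, from 2 UMIs, and 0.157. OLGs were at 0.217 and 0.0419 and T cells at 0.0362 and 0.00814. Both neuropilins were found together in 34% and 37.2% of microglia.

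The classes were compared in an edgeR quasi-likelihood fit over 12 sums, 6 classes in 2 tumors, with the tumor as a block and p-values adjusted over 12676 genes. Mural cells, with 5 cells in tumor 1, entered only an added fit with a minimum of 5 cells. Against glioma cells, ECs had 6 of the 8 tested members higher and 1 lower, where 15.2% and 14.4% of all genes tested were higher and lower. Flt1 was higher by 8.59 ± 0.32 on the log2 scale (SE, adjusted p = 1.27e-09), Flt4 by 8.68 ± 0.60 (adjusted p = 2.20e-07) and Kdr by 7.94 ± 0.67 (adjusted p = 7.53e-07). The neuropilins followed, Nrp1 at 4.19 ± 0.59 (adjusted p = 8.55e-05) and Nrp2 at 2.40 ± 0.54 (adjusted p = 0.00374). Of the ligands, Pgf was higher by 4.11 ± 0.69 (adjusted p = 0.000407) and Vegfb was lower at -1.33 ± 0.34 (adjusted p = 0.00949), while Vegfa at -0.33 ± 0.52 did not pass the test (adjusted p = 0.676). The call for Vegfb was lost without the tumor block (adjusted p = 0.0546) and with thinned cells (adjusted p = 0.0791). The difference for Pgf was 2.39 (adjusted p = 0.0491) without the ECs that had 10 or more glioma marker UMIs. With cells thinned to 2000 UMIs, that for Nrp2 was -0.58 (adjusted p = 0.853).

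Microglia had 5 of the 8 members higher than glioma cells and 0 lower (0 also at an unadjusted p under 0.05 and by DESeq2), where 23.0% and 26.8% of all genes were higher and lower. Nrp1 was higher by 3.16 ± 0.55 (adjusted p = 0.000241), Nrp2 by 2.69 ± 0.48 (adjusted p = 0.000298), Flt4 by 3.66 ± 0.63 (adjusted p = 0.000285) and Flt1 by 1.45 ± 0.27 (adjusted p = 0.000445). Vegfb was higher by 0.87 ± 0.27 (adjusted p = 0.0158), but by 0.07 (adjusted p = 0.832) with library totals in place of TMM. Its direct levels, 0.569 and 0.744 in microglia and 0.695 and 0.55 in glioma cells, changed order between the tumors. Vegfa was at -0.18 ± 0.40 (adjusted p = 0.734). Flt1 in microglia was at -0.02 when cells were thinned.

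Monocytes had 7 members higher than glioma cells and 1 lower, where 21.8% and 25.5% of all genes were higher and lower. By DESeq2, 5 members were higher and 1 lower. Vegfa was higher by 2.00 ± 0.43 (adjusted p = 0.00184), and by 1.43 (adjusted p = 0.0144) with library totals. Flt1 was higher by 3.39 ± 0.29 (adjusted p = 3.62e-07), Flt4 by 4.12 ± 0.89 (adjusted p = 0.00212) and Nrp1 by 2.68 ± 0.57 (adjusted p = 0.00178). Flt4 of monocytes had only 1 and 5 UMIs in tumors 1 and 2, and Kdr and Nrp2 had 2 UMIs each in tumor 1. Vegfb was lower at -2.02 ± 0.36 (adjusted p = 0.000451). Pgf, Kdr and Nrp2 also passed, at 2.31, 2.30 and 1.47, but not with library totals, and without the tumor block 3 members in all were higher. Within tumor 1, with 23 monocytes, and within tumor 2 the differences were 2.93 and 1.33 for Vegfa, 3.42 and 3.37 for Flt1, 0.77 and 3.39 for Nrp1 and 0.26 and 1.96 for Nrp2. The Flt1 differences were thus alike in both tumors, but that of tumor 1 rested on 8 UMIs in monocytes. Nrp1 and Nrp2 rested mainly on tumor 2, and so did Pgf, with no UMI in the monocytes of tumor 1.

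The myeloid classes differed in their ligands. Against monocytes, microglia had Vegfb higher by 2.88 ± 0.37 (adjusted p = 0.000125), the 1 member so, where 5.18% of all genes were higher. The 3 lower members, where 5.21% of genes were lower, were Vegfa at -2.19 ± 0.45 (adjusted p = 0.00549), Pgf at -4.01 ± 0.98 (adjusted p = 0.0158) and Flt1 at -1.93 ± 0.31 (adjusted p = 0.000891). Microglia thus stood lower in Vegfa and higher in Vegfb than monocytes, in each tumor, while Pgf had no UMI in either class of tumor 1.

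T cells differed from glioma cells in 2 members, Nrp1, higher by 2.57 ± 0.55 (adjusted p = 0.00171), where 19.0% of all genes were higher, and Vegfa, lower at -1.27 ± 0.47 (adjusted p = 0.0390), where 24.6% were lower. The Vegfa call was lost in 5 alternatives, namely without the block, by DESeq2, at a gate of 10 times, without doublet removal and with thinned cells (adjusted p from 0.0592 to 0.269). OLGs had 0 members higher by edgeR, 0 at an unadjusted p under 0.05 and 0 by DESeq2, where 10.7% of genes were higher, and 1 lower, Flt1 at -1.74 ± 0.57 (adjusted p = 0.0470), where 10.9% were lower. That call was lost in 10 alternatives.

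In the added fit, mural cells had 3 members higher than glioma cells, where 7.38% of genes were higher, and 0 lower by edgeR, with 1 at an unadjusted p under 0.05, where 5.27% of genes were lower; DESeq2 was not run on this fit. These were Pgf by 6.27 ± 0.66 (adjusted p = 5.99e-07), Flt1 by 5.73 ± 0.46 (adjusted p = 1.62e-08) and Nrp1 by 3.54 ± 0.65 (adjusted p = 0.000608). ECs against mural cells had 3 members higher, where 3.06% of genes were higher, and 1 lower, where 2.83% were. Flt1 was higher by 2.86 ± 0.41 (adjusted p = 0.000108) and Kdr by 5.36 ± 0.90 (adjusted p = 0.000532), and Flt4 passed with no UMI in mural cells (adjusted p = 0.0122). Pgf was lower at -2.16 ± 0.64 (adjusted p = 0.0497). Endothelial markers reached 4.11 UMIs per 10,000 in the 5 mural cells of tumor 1, beside its 2 Flt1 UMIs, and their part in the result was not tested.

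**Figure D4:**
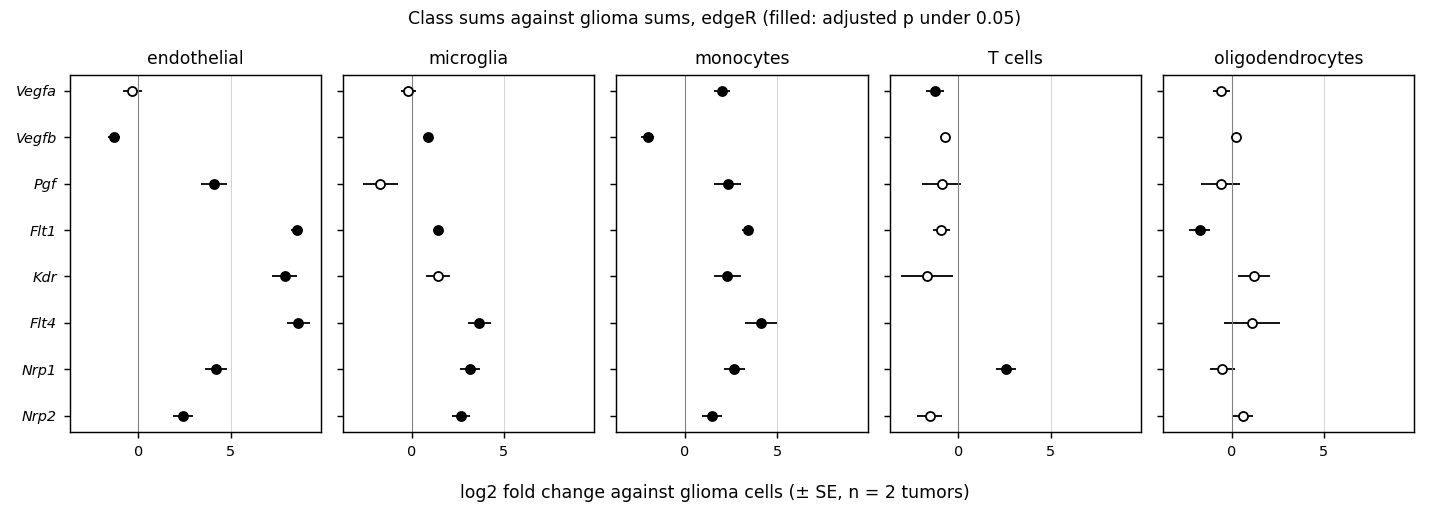
Log2 difference of each tested VEGF gene between a cell class and glioma cells (horizontal axis, edgeR, bars are SE), from both tumors together; filled points have an adjusted p under 0.05. Vegfc, not tested, and Flt4 of T cells, with no UMI, are left out. The receptors of ECs reach 7.94 to 8.68.

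The fits depend on scaling between classes of unlike RNA. TMM factors were 1.38 and 1.21 for glioma cells and 0.773 and 0.716 for microglia. The median log2 difference of all genes was -0.19 for ECs, -0.12 for microglia, -0.25 for monocytes, -0.11 for T cells and -0.12 for OLGs, and -0.35, -0.91, -0.91, -0.66 and -0.27 with library totals. Over all genes, 2917 higher and 3402 lower calls in microglia became 1719 and 6781 with library totals. In monocytes 2759 and 3229 became 1858 and 5811, in T cells 2408 and 3120 became 1446 and 5123, in OLGs 1360 and 1376 became 1200 and 1871, and in microglia against monocytes 657 and 661 became 570 and 881. Leaving out either tumor left 1 sum a class, with no test, and each called member kept its sign in both tumors, apart from Pgf of monocytes, with no UMI in tumor 1. The difference between ECs and glioma cells was 9.11 and 6.91 for Kdr, 1.58 and 3.20 for Nrp2 and -1.83 and -0.77 for Vegfb within tumors 1 and 2, and that for Flt1 of OLGs was -1.69 and -0.34.

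Genes downstream of VEGFR2 were partly higher in ECs. Of the 41 tested genes of that list, 14 were higher and 3 lower than in glioma cells, with a median difference of 0.41 against -0.19 over all genes. Among them were Ptprb, the endothelial phosphatase VE-PTP, at 6.88 and 2.05 in ECs against 0.00710 and 0.00873 in glioma cells (9.08 ± 0.64), and Hspb1, a small heat shock protein, at 16.8 and 7.95 against 0.104 and 0.328 (6.22 ± 0.53). Nos3, endothelial nitric oxide synthase, was at 1.04 and 0.808 in ECs (5.77 ± 0.57). In microglia 17 were higher and 9 lower (median 0.43), led by Prkcd, a protein kinase C, at 5.38, and by Pla2g4a, a phospholipase, at 4.42, with Cav1, a caveolar coat gene, at -3.20. Monocytes had 16 higher and 11 lower (median 0.38), T cells 9 and 8 (0.02) and OLGs 5 and 2 (-0.26). Over all genes tested the higher and lower shares were 15.2% and 14.4% in ECs, 23.0% and 26.8% in microglia, 21.8% and 25.5% in monocytes, 19.0% and 24.6% in T cells and 10.7% and 10.9% in OLGs, so that the T-cell and OLG counts of this list were near or below the background. In T cells Sh2d2a, which encodes an adaptor of both T-cell and VEGFR2 signaling, was at 5.39 and 3.95 against 0.00791 and 0.0110 in glioma cells (9.51). The largest difference among the genes named from this list was thus in T cells, which had 1 Kdr UMI in each tumor.

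The same shares over all genes are the background for the lists that follow. Of the 11 tested semaphorin and plexin partners of neuropilins, ECs had 4 higher and 2 lower (median 0.87). Sema3c at 6.40 ± 0.50 and Sema3g at 5.47, both secreted semaphorins, and Plxnd1, a plexin receptor, at 4.11 ± 0.48 were higher, and Sema3d was lower at -2.33. Microglia had 0 higher and 5 lower (median -2.10), T cells 0 and 5 (-2.63) and monocytes 1 and 5 (-1.77), with Plxna2, a plexin co-receptor, lower in all 3 at -3.83, -3.60 and -2.43. OLGs had 1 higher, the neuropilin-binding adaptor Gipc1 at 2.11, and 2 lower (-1.12). Of the 2 tested genes that process VEGFC, both were higher in ECs, Furin at 2.04 and Pcsk7 at 1.40, both proprotein convertases, and Furin was also higher in microglia at 2.12, in monocytes at 2.95 and in T cells at 3.04. Pcsk7 was higher in microglia at 1.01 (adjusted p = 0.0220) and in monocytes at 1.12 (adjusted p = 0.0364).

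Of the 7 genes of the HIF pathway, 1 was higher in ECs, Epas1, which encodes HIF-2 alpha, at 4.06 and 1.44 against 0.187 and 0.108 in glioma cells (4.29 ± 0.44). Hif1a, which encodes HIF-1 alpha, was higher in microglia by 1.80, in monocytes by 1.80 and in T cells by 1.95, and Epas1 was lower in microglia at -2.86 and in monocytes at -1.74 (adjusted p = 0.0312). Of the 18 HIF targets, 4 were higher and 2 lower in ECs (median 0.66), with Adm, the vasodilator adrenomedullin, at 5.50 and Slc2a1, the glucose transporter of the blood-brain barrier, at 5.38. Microglia had 8 higher and 2 lower (0.73), monocytes 7 and 1 (0.65), T cells 5 and 0 (0.41) and OLGs 2 and 2 (-0.06). In monocytes Ankrd37 was higher by 2.83, Pfkfb3 by 2.45 and Slc2a1 by 2.30, and Slc2a3 was lower at -2.04. A link of these genes to Vegfa in monocytes was not tested.

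The receptors were lower in tumor 2 in several classes. No test is possible between 1 library and 1 library, so ratios of the levels, tumor 2 over tumor 1, are given with counting intervals. For Flt1 the ratio was 0.32 (0.283 to 0.361) in ECs, 0.35 (0.298 to 0.41) in glioma cells, 0.25 (0.123 to 0.466) in microglia and 0.286 (0.138 to 0.687) in monocytes. For Kdr it was 0.236 (0.191 to 0.29) in ECs and 0.0292 (0.000725 to 0.171, 47 against 1 UMI) in microglia, but 1.12 (0.928 to 1.35) in glioma cells. For Flt4 it was 0.288 in ECs and 0.313 in glioma cells. Flt1 was thus lower in tumor 2 in each of these 4 classes, and Kdr in ECs and microglia, while its ratio in glioma cells had an interval that includes 1.

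Nrp1 had ratios of 0.278 in ECs, 0.248 in glioma cells, 0.317 in microglia and 0.105 (0.0724 to 0.148) in T cells, but 1.3 (0.621 to 3.25) in monocytes and 1.09 in OLGs. For Nrp2 the ratio was 0.521 in glioma cells, 1.57 (0.887 to 2.82) in ECs and 1.27 in microglia. Vegfa had 1.2 in glioma cells, 0.321 (0.214 to 0.5) in monocytes and 3.35 (1.17 to 11.7) in ECs, and Vegfb 0.792 in glioma cells and 1.31 in microglia. As background, of 6217 genes with at least 20 UMIs in ECs, glioma cells and microglia of the tumors together, 700 (11.3%) were lower in tumor 2 in all 3 classes with intervals below 1, and 475 (7.64%) were higher. The highest of the 3 ratios was 0.317 for Nrp1, and 13 genes (0.209%) had one as low. For Flt1 it was 0.35, and 23 genes (0.37%) had one as low. These ranks were taken for Nrp1 and Flt1 only, in classes where both were lower, and leave out monocytes and OLGs. They are descriptions. In ECs the EGFP share, 15.4% and 36.5% of the glioma level, also differed between the tumors. The summed endothelial markers of ECs were lower in tumor 2 too, at 53.1 against 97.1 UMIs per 10,000. The part of either in the lower receptor levels was not tested.

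**Figure D5:**
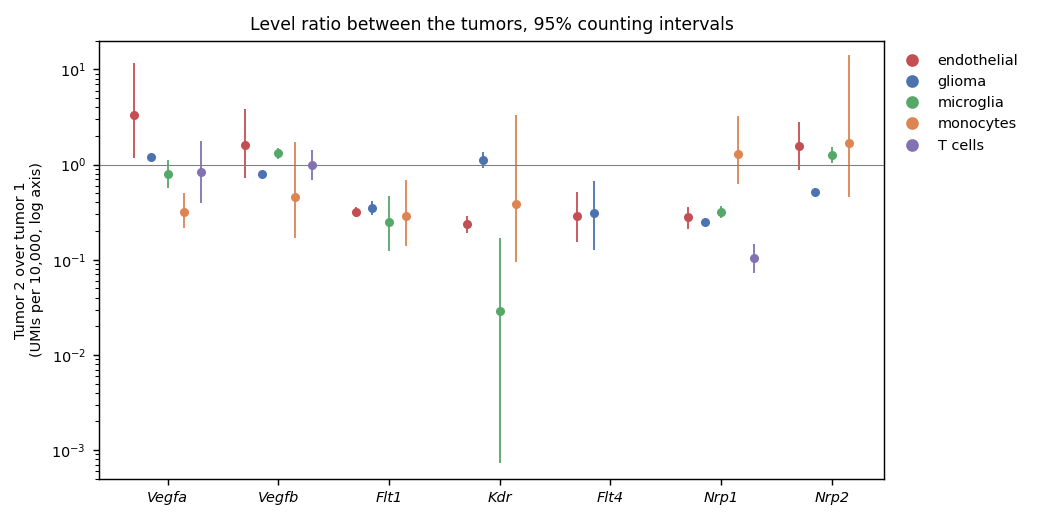
Ratio of levels, tumor 2 over tumor 1 (log axis), with counting intervals, for 7 VEGF genes in ECs, glioma cells, microglia, monocytes and T cells, where a class had at least 20 UMIs in the tumors together. Flt1 lies at 0.25 to 0.35 in ECs, glioma cells, microglia and monocytes, and Nrp1 of T cells at 0.105.

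Over the 12 sums of class and tumor, the genes whose log2 levels followed each member most closely were ranked by Pearson's r among 15297 genes with at least 100 UMIs. These sums share their libraries and their scaling, and the values are descriptions. Flt1 was followed by Flt4 (r = 0.924), the fibronectin gene Fn1 (0.922) and Adgrl2 (0.915), an adhesion receptor. Kdr was followed by Klf4 (0.922) and Klf11 (0.912), both Krüppel-like factors, and Flt4 by Tpcn1 (0.972), an endolysosomal channel. Vegfa was closest to Mapk13 (0.944), Ciita (0.896), the regulator of MHC class II genes, and F13a1 (0.890), a coagulation factor of myeloid cells, and Vegfb to Dhrs7b (0.908). Pgf was closest to Tns2 (0.895), Vegfc to Sema3b (0.960), Nrp1 to Clip1 (0.949) and Nrp2 to Cltc (0.935), the clathrin heavy chain gene.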

How the data were processed

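Droplet 3′ libraries (10× Genomics, V2) were made from digested tumor tissue. The deposited matrices hold UMI counts per gene and barcode, which the authors made with Cell Ranger 4.0.0 on mm10. Here, barcodes with at least 500 genes, under 20% mitochondrial and under 5% haemoglobin UMIs were kept. Scrublet's own threshold found 0 and 1 doublets, so the top 11.4% and 14.9% of its scores were removed (0.8% per 1000 barcodes). A cell was given a class where at least 3 of its markers had a UMI and their sum was at least 4 times that of every other class. Markers were Sox2, Olig2, Ptprz1, Cspg5, Bcan and Ncan for glioma cells, Pecam1, Cldn5, Cdh5, Egfl7, Emcn, Tie1 and Tek for ECs, Pdgfrb, Kcnj8, Rgs5, Abcc9, Vtn, Higd1b, Acta2 and Myh11 for mural cells, Tmem119, P2ry12, Siglech, Gpr34, Sall1 and Slc2a5 for microglia, Ly6c2, Plac8, Chil3, Ccr2, Ms4a4c and Hp for monocytes, Cd3d, Cd3e, Cd3g and Cd2 for T cells, and Mag, Mog, Cldn11, Klk6, Mobp and Ermn for OLGs. For microglia and macrophages, which share markers, macrophages instead needed 0 microglia marker UMIs. UMIs were summed per class and tumor and tested with edgeR 4.0.16 (filterByExpr, TMM, quasi-likelihood, tumor as a block, Benjamini-Hochberg, adjusted p under 0.05) in R 4.3.3, for classes with at least 10 cells in each tumor; gate markers and transgenes were left out of the tests. DESeq2 1.42.0 was an alternative.

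Members and lists were chosen with earlier results of these data known. Of each list, up to 4 called genes of largest difference per comparison, with over 3 UMIs in every sum of the higher class, were eligible to be named. Classes of a tumor come from 1 animal, which is the pairing, and in 12 of 15 pairs of classes the deviations of same-tumor sums correlated above 0.1 (range 0.048 to 0.538). Planned tests with mural cells were run only with a minimum of 5 cells, since tumor 1 had 5. With 1 library per animal, p-values rest on 5 residual degrees of freedom. The fit was tested on simulated data first. Other settings were no block, other scalings, no filter on low counts, gates at 2 and 10 times, no doublet removal, a mitochondrial limit of 10%, and thinning. Sequences are RefSeq's and gene positions GENCODE's, both on GRCm38.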

Additional observations from a re-analysis of the deposited data

How the results depend on the processing

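Of 564 log2 differences under other settings, 512 kept their direction and side of the threshold, 38 no longer passed, 12 came to pass and 2 reversed. Of 144 counts of members, 31 moved, and of 378 levels 23, of which Vegfa of ECs in tumor 2 went from 0.259 to 0 at a gate of 10 times. Without the replicate block, ECs had 0 members lower, microglia 3 higher, monocytes 3 higher, T cells 0 lower, OLGs 0 lower, and microglia against monocytes 1 lower. Over all genes the fit without the block called 1225 higher and 805 lower in ECs (1930 and 1823 with it), 1957 and 2260 in microglia, 1870 and 1845 in monocytes, 1426 and 1986 in T cells, 600 and 377 in OLGs and 235 and 272 in microglia against monocytes. Thinned to 2000 UMIs, ECs had 3 members higher and 0 lower, microglia 3 higher, T cells and OLGs 0 lower, microglia against monocytes 1 lower, Nrp2 of ECs was -0.58 and Flt1 of microglia -0.02. Over all genes thinning called 694 higher and 610 lower in ECs, 1484 and 1498 in microglia, 1476 and 1524 in monocytes, 1151 and 1284 in T cells, 676 and 600 in OLGs and 302 and 321 between the myeloid classes; thinned cells hold fewer UMIs. With library totals (chosen after the data were seen, as were the next setting and the minimum of 5 cells), microglia had 1 lower, monocytes 4 higher and T cells 4 lower. Without ECs of 10 or more glioma marker UMIs, T cells had 2 lower. With no filter, microglia had 1 lower, T cells 2 lower and microglia against monocytes 2 higher. At a gate of 2 times, microglia had 1 lower and T cells 2 lower, and at 10 times microglia had 3 higher. Without doublet removal T cells had 0 lower. OLGs had 0 lower in 10 settings, that is, in all tried but no doublet removal and library totals. In the top 25% of glioma cells by HIF targets the Vegfa ratio was 1.69 and 3.17, and for whole scores of 3 or more it was 3.25 in tumor 2. At a gate of 2 times, glioma cells held 83.5% and 61.0% of Vegfa and ECs 46.5% and 30.8% of Flt1, and at 10 times (a share added after seeing the data) 64.2% and 23.3%, and 28.6% and 19.4%. The cause of these changes was not tested. Few ECs and mural cells limit the depth: 39 and 26 ECs and 5 and 26 mural cells.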

Other observations

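Macrophages and neutrophils, which entered no comparison, also held VEGF transcripts. Macrophages, gated by complement and Ms4a7 markers with no microglia marker UMI, numbered 93 and 369 cells. Their level of Vegfa was 1.14 (0.93 to 1.39, from 100 UMIs) in tumor 1 and 0.436 (0.357 to 0.526, from 108 UMIs) in tumor 2, with a UMI in 39.8% and 17.3% of the cells, and in 18.9% and 7.29% after thinning to 2000 UMIs. Their intervals overlapped those of monocytes in both tumors. Macrophages held 2.01% and 1.68% of all Vegfa UMIs. Neutrophils were called in tumor 2 only, 154 cells with 20 Vegfa UMIs, a level of 0.289 (0.176 to 0.446), and EGFP was at 77.4% of its glioma level there.

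For the receptors, macrophages had 29 and 6 Flt1 UMIs, at 0.332 and 0.0242, and 10 and 2 Flt4 UMIs. Nrp1 was at 1.2 and 0.218 in macrophages, lower in tumor 2 as in microglia, and Vegfb at 0.332 and 0.355. EGFP in macrophages was at 11.3% and 19.6% of its glioma level, and the difference between the tumors was not tested.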
